A study of Mus musculus with 12 samples.

Results

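The AP-1 and early-response transcription factors were examined as 10 genes, taken by name from the expression table: Fos, Fosb, Fosl1, Fosl2, Jun, Junb, Jund, Atf3, Batf2 and Egr1. All 10 were among the 29428 genes of the table, and all 10 passed the filter of at least 0.5 TPM (a level scaled by gene length and by library) in at least 3 libraries that left 16127 genes for testing. RNA sequencing was done on STHdhQ7/Q7 cells (STHdhQ7, "normal") and STHdhQ111/Q111 cells (STHdhQ111, "HD"), striatal lines that were derived from knock-in mouse embryos and conditionally immortalized with a temperature-sensitive large T antigen. They carry Huntingtin alleles encoding 7 and 111 glutamines, respectively. The nontreated groups were Q7-C and Q111-C, and the groups given IFNγ at 100 ng/ml together with LPS at 5 μg/ml for 24 h were Q7-T and Q111-T, with 3 libraries in each group. Both lines were grown at 33 °C and used within 20 passages, and each genotype was represented by 1 line, so genotype and line cannot be told apart. The paper calls the 3 libraries of a group biological replicates, but nothing in the sample labels says that they came from separate cultures. The p-values therefore measure the spread between these libraries.

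AP-1 is a dimer of basic leucine zipper (bZIP) proteins: Fos proteins pair with Jun proteins, Jun proteins can also pair with each other, and members of the ATF and BATF families join them. The dimers bind the sequence TGACTCA or the related cyclic AMP response element. Fos, Junb and Egr1 are textbook immediate-early genes, whose transcription follows growth factors, stress or Toll-like receptor ligands through MAP kinases without new protein synthesis, and whose mRNAs decay quickly, whereas Fosl1 and Fosl2 typically follow later. Egr1 is a zinc finger protein and no AP-1 subunit. Batf2 is known as an interferon-inducible BATF protein that pairs with Jun proteins in macrophages.

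The library totals ranged from 57505990 to 96417834 estimated counts, which corresponded to 14376497 to 24104458 read pairs if each pair had given 4 counts. All 6 genes of an IFNγ/LPS response list rose in both lines, among them Gbp2, an interferon-induced GTPase (log2 fold change 7.0 in STHdhQ7 and 6.27 in STHdhQ111 cells), and Nos2, the inducible nitric oxide synthase (6.31 and 8.90). Defining markers of striatal neurons were measured in part: of the medium spiny neuron markers reported here, Ppp1r1b and Penk reached 0.5 TPM, in STHdhQ111 libraries only, Adora2a and Bcl11b stayed under it in every library, and Drd1, Drd2 and Tac1 were not analysed here. The mean of Ppp1r1b was 1.12 TPM in Q111-C and 0.461 TPM in Q111-T, and that of Penk 4.93 and 1.65 TPM. All 6 mesenchymal markers reached 0.5 TPM, with summed TPM of 1490 to 1610 in Q111-T, against 3600 to 3760 in Q111-C, 3340 to 3730 in Q7-T and 4310 to 4870 in Q7-C. Of 5 microglia and macrophage markers in the table, only Cd68, a lysosomal protein also found in other cells, reached 0.5 TPM, and Ptprc, Itgam, Csf1r and Adgre1 stayed under it in every library. A pair of libraries stood apart. Replicate 2 of Q7-T lay nearest to replicate 1 of Q7-C, whereas each of the other 11 libraries lay nearest to one of its own group. Ribosomal protein genes summed to 68200 TPM in the former and 55500 TPM in the latter, against 32300 to 44000 TPM in the other 10 libraries. Calls of the 10 genes that change without both of these libraries, and changed list calls in the treatment comparisons, are given beside the results. Replicate 2 of Q111-T differed less, with mitochondrial genes at 112000 TPM against 69000 and 78800 TPM in the others of its group, and without it the same 8 genes were called in Q111-T vs. Q111-C and the same 7 in the interaction described further on. In bulk RNA fewer expressing cells cannot be told apart from less RNA per cell.

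The stretches before the transcription starts of 5 of the 8 genes that rose in treated STHdhQ111 cells are shown because these genes moved together. They are the 250 bases upstream of the RefSeq start (GRCm38.p6), printed 5′ to 3′ on the gene's strand. Capitals mark TGACG, the core of the cyclic AMP response element, its relative TGACNTCA, and the TATA box letters TATAAA, each searched on both strands. A TGACG inside TGACNTCA would be counted for both. The 5 lines run upstream of Fos on the plus strand at chr12:85473640-85473889, Fosb on the minus strand at chr7:19310046-19310295, Jun on the minus strand at chr4:95052223-95052472, Junb on the minus strand at chr8:84978749-84978998 and Atf3 on the minus strand at chr1:191183334-191183583, the last inside the longer span that the table gives for Atf3.
Fos: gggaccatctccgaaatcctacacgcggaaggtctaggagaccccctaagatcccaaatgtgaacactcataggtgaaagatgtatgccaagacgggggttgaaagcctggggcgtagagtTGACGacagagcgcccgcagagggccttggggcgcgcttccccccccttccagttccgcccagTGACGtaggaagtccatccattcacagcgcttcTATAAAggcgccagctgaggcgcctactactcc
Fosb: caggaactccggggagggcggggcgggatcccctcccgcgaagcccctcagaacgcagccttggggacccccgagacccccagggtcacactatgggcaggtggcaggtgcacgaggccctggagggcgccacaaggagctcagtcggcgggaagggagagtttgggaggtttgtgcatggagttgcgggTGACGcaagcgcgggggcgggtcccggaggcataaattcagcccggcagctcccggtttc
Jun: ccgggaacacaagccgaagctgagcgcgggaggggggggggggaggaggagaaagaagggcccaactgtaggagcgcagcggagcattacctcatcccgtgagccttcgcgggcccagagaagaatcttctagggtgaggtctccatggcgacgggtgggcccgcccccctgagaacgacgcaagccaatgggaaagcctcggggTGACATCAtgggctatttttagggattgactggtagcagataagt
Junb: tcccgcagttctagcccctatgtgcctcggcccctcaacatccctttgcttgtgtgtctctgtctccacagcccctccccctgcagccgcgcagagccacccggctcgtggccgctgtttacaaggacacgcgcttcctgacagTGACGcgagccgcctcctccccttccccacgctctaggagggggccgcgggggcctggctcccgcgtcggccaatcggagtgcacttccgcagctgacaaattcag
Atf3: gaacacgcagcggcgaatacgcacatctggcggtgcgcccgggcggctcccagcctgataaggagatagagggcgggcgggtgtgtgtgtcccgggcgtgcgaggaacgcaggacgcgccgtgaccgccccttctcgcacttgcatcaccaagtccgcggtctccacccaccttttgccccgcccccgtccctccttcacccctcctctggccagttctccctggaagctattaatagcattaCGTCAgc

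Of the 10 genes, 7 had a matching promoter stretch. TGACG was found in 4 of the 7 (Fos, Fosb, Junb and Atf3), against 17.8% of 32851 RefSeq promoter windows of that length. In Fos it lay at -129 to -125 and again at -66 to -62 relative to the start, with TATAAA at -33 to -28, and TATAAA was found in no other of the 7 and in 12.4% of all windows. In Jun the letters TGACATCA lay at -45 to -38, and TGACNTCA was present in 7.49% of all windows. The box letters CCAAT and GGGCGG, searched likewise, were in 2 and 5 of the 7, against 33.8% and 32.7%. All of these letters were chosen after an earlier set had given no match in any of the 7: TGACTCA (4.46% of all windows), TGACGTCA (1.55%), TTCNNNGAA, the STAT site (7.02%), the CArG box of the serum response factor (1.47%) and GCGTGGGCG, the Egr site (0.536%). A match describes the letters only, and a missing match says only that those letters are not in this window. The printed windows held 58.4% (Fos) to 68.8% (Fosb) G or C, against a median of 52.4%.

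**Figure D1:**
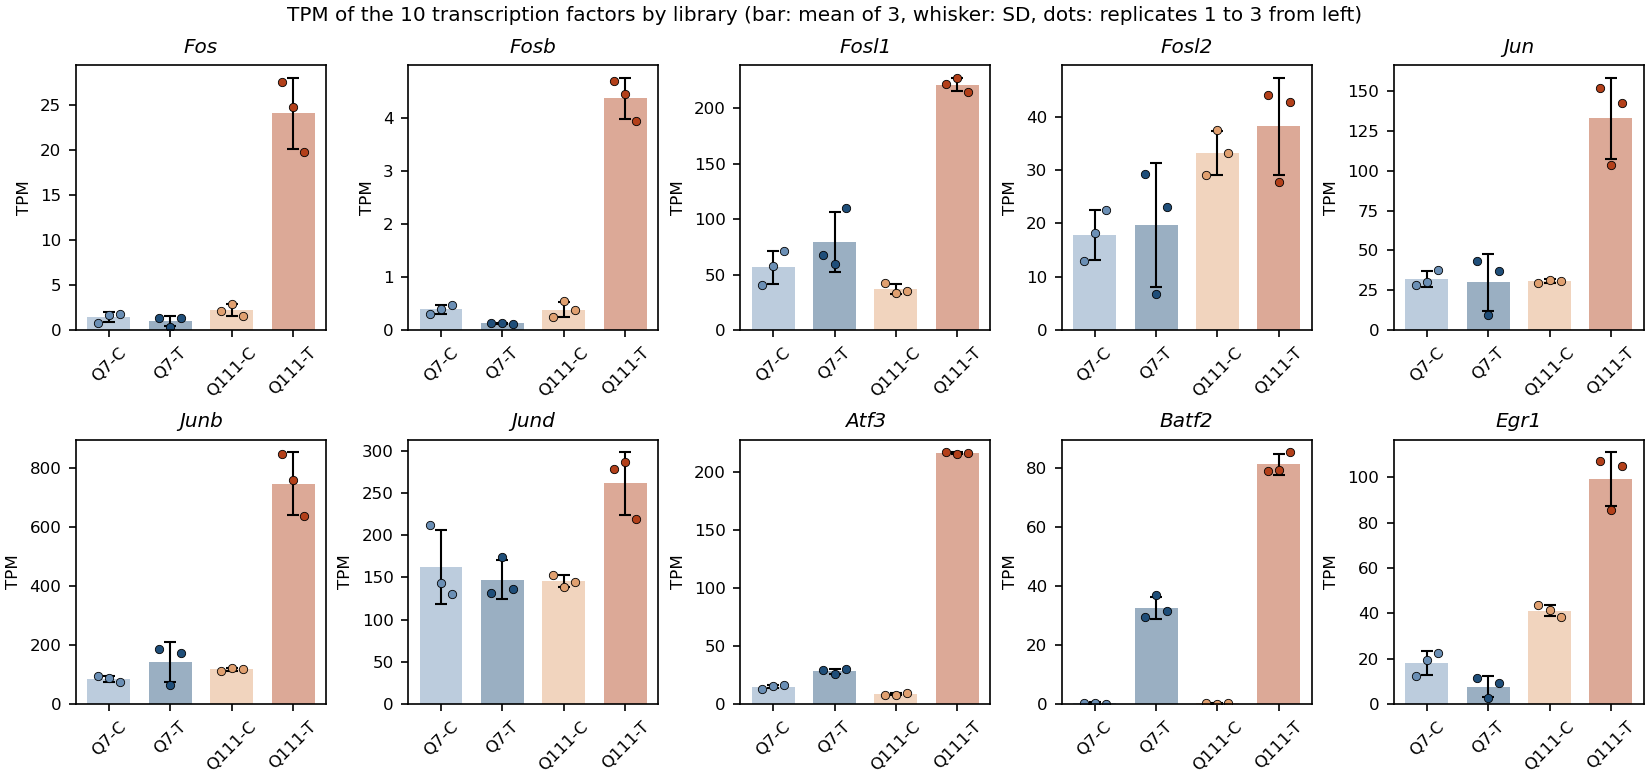
TPM of each gene (y axis, linear, a scale of its own per panel) in the 4 groups (x axis); dots are the 3 libraries, bars their mean and whiskers their SD. For 9 genes all Q111-T libraries lie above every library of the other 3 groups, as they do for 13.3% of all genes tested, for example 215 to 217 TPM for Atf3, while Fosl2 overlaps.

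In the Fos family, whose members supply the partners of Jun proteins, Fos and Fosb were low in all groups but Q111-T, and Fosl1 was the most abundant member. Fos (chromosome 12, 85473890 to 85477273, in GRCm38 as are all positions) was at 0.796, 1.64 and 1.83 TPM in Q7-C, 1.31, 0.368 and 1.33 in Q7-T, 2.15, 2.92 and 1.60 in Q111-C, and 27.6, 24.8 and 19.8 in Q111-T. Every Q111-T library thus exceeded all 9 others, and of those the Q7-C range overlapped that of Q7-T and of Q111-C, whereas Q7-T lay below Q111-C. In Q111-T vs. Q111-C Fos rose by a log2 fold change of 3.54 ± 0.357 (SE, n = 3 per group, edgeR adjusted p = 3.08e-05), an 11.6-fold difference. The treated STHdhQ7 cells differed from their control by -0.37 ± 0.333 on the log2 scale (edgeR adjusted p = 0.69, 95% interval -1.10 to 0.36). The Q7-T values came from 35 to 160 estimated counts, and those of Q111-T from 1295 to 2344.

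Fosb (chromosome 7, 19302696 to 19310051), a close relative of Fos, was at 0.293, 0.397 and 0.476 TPM in Q7-C, 0.138, 0.129 and 0.107 in Q7-T, 0.245, 0.541 and 0.370 in Q111-C, and 4.70, 4.45 and 3.94 in Q111-T. It reached 0.5 TPM in 4 libraries, 3 of them Q111-T, so it entered the test through the group in which it was high. The log2 fold change in Q111-T vs. Q111-C was 3.60 ± 0.340 (edgeR adjusted p = 1.88e-05, n = 3 per group). In treated STHdhQ7 cells Fosb fell by 1.35 on the log2 scale (SE 0.326, edgeR adjusted p = 0.0338), with no overlap between the groups, but on 29 to 35 estimated counts a library in Q7-T. That call was lost when any of 8 single libraries was left out, namely any of Q7-C, replicates 1 or 3 of Q7-T, replicate 3 of Q111-C and replicates 1 or 3 of Q111-T, with the highest adjusted p without replicate 3 of Q7-T (-1.16, 0.118), and when the 2 compared groups were fitted alone (-1.34, adjusted p = 0.255).

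Fosl1 (chromosome 19, 5447547 to 5455946), encoding Fra-1, was at 40.6, 57.5 and 71.1 TPM in Q7-C, 67.5, 59.9 and 110 in Q7-T, 42.4, 33.8 and 34.9 in Q111-C, and 222, 227 and 215 in Q111-T. The treated STHdhQ111 libraries lay close together and above all others, and the Q7-C and Q7-T libraries overlapped. Fosl1 rose in Q111-T vs. Q111-C by a log2 fold change of 2.69 ± 0.216 (edgeR adjusted p = 5.67e-06) and in Q111-T vs. Q7-T by 1.09 ± 0.206 (edgeR adjusted p = 0.00162). Without replicate 1 of Q7-T the latter was 0.90 (adjusted p = 0.00367), under the 2-fold limit. In the STHdhQ7 line the response was 0.70 ± 0.204 (edgeR adjusted p = 0.0863). In Q111-C vs. Q7-C it was -0.90 ± 0.205 (edgeR adjusted p = 0.00779), also under the 2-fold limit. The opposite strand gene Ccdc85b overlaps Fosl1.

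Fosl2 (chromosome 5, 32135801 to 32157842), encoding Fra-2, was at 13.0, 18.2 and 22.4 TPM in Q7-C, 29.3, 6.73 and 23.1 in Q7-T, 29.0, 37.4 and 33.1 in Q111-C, and 44, 27.7 and 42.8 in Q111-T. The treated and nontreated libraries overlapped in both lines. Its log2 fold change was 0.29 ± 0.279 in Q111-T vs. Q111-C (edgeR adjusted p = 0.573, 95% interval -0.33 to 0.90) and 0.23 ± 0.279 in Q7-T vs. Q7-C (edgeR adjusted p = 0.780, 95% interval -0.38 to 0.84, with -0.06 by limma on log2(TPM + 0.5)).

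The Jun family provides the obligate partners of Fos proteins, and its Q111-T libraries were the highest for all 3 members. Jun (chromosome 4, 95049034 to 95052222) was at 28.0, 30.3 and 37.6 TPM in Q7-C, 43.4, 9.73 and 36.8 in Q7-T, 29.3, 31.5 and 31.1 in Q111-C, and 152, 104 and 143 in Q111-T. Apart from the low replicate 2 of Q7-T, the 3 other groups ranged from 28.0 to 43.4 TPM. Jun rose in Q111-T vs. Q111-C by a log2 fold change of 2.21 ± 0.292 (edgeR adjusted p = 2.48e-04) and was -0.04 ± 0.279 in Q7-T vs. Q7-C (edgeR adjusted p = 0.971). Without replicate 2 of Q7-T the latter value was 0.29 (adjusted p = 0.319). Junos, the antisense gene of Jun, overlaps it.

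Junb (chromosome 8, 84976910 to 84978718 in the table) was the most abundant member in Q111-T: it was at 95.4, 88.7 and 76.1 TPM in Q7-C, 189, 64.2 and 173 in Q7-T, 114, 124 and 118 in Q111-C, and 849, 760 and 637 in Q111-T. The lowest Q111-T library held more than the highest of any other group. The log2 fold change was 2.76 ± 0.267 in Q111-T vs. Q111-C (edgeR adjusted p = 2.27e-05) and 0.76 ± 0.252 in Q7-T vs. Q7-C (edgeR adjusted p = 0.135). The Q7-T libraries of Junb were split, replicates 1 and 3 lying above and replicate 2 below all Q7-C libraries. Without replicate 1 of Q7-C the response of STHdhQ7 cells was called (1.03, adjusted p = 0.0421), and without both libraries that stood apart it was 1.21 (adjusted p = 8.16e-04).

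Jund (chromosome 8, 70698949 to 70700616), which is known for steady expression in resting cells, was at 212, 144 and 130 TPM in Q7-C, 132, 174 and 136 in Q7-T, 153, 139 and 145 in Q111-C, and 278, 287 and 219 in Q111-T. The Q111-T libraries did not overlap any other group, the other 3 groups overlapped with each other, and the mean TPM ratio of Q111-T to Q111-C was 1.79 ± 0.266 (SD propagated from 3 libraries each). The fitted log2 fold change of 0.95 ± 0.356 was not called (edgeR adjusted p = 0.0912). DESeq2 gave 0.94 with an adjusted p of 0.0486, again under 2-fold. Gm11175 overlaps Jund on the opposite strand.

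Atf3, a stress-inducible bZIP factor that often acts as a repressor, had the response next in size to that of Batf2 in STHdhQ111 cells. Atf3 (chromosome 1, 191170296 to 191218039) was at 13.5, 15.8 and 16.2 TPM in Q7-C, 29.4, 26.0 and 30.1 in Q7-T, 8.12, 7.94 and 9.90 in Q111-C, and 217, 215 and 216 in Q111-T. No 2 groups overlapped, and the nontreated STHdhQ111 cells were lowest while the treated ones were highest. The log2 fold change was 4.75 ± 0.202 in Q111-T vs. Q111-C (edgeR adjusted p = 1.18e-07), a 26.8-fold rise, and 1.12 ± 0.175 in Q7-T vs. Q7-C (edgeR adjusted p = 0.00201), a 2.18-fold rise. The response of STHdhQ7 cells lay near the 2-fold limit: it was 0.94 (adjusted p = 0.00151) without replicate 2 of Q7-T and 0.89 (adjusted p = 0.00306) with limma on log2(TPM + 0.5). In Q111-C vs. Q7-C Atf3 fell by 1.13 on the log2 scale (SE 0.176, edgeR adjusted p = 6.32e-04), which became -0.78 (adjusted p = 0.00200) with limma on log2(TPM + 0.5), under the limit.

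Batf2 (chromosome 19, 6140983 to 6172476) rose by the largest factor of all 10 genes in both lines, from a level close to the detection limit. It was at 0.510, 0.512 and 0.134 TPM in Q7-C, 29.6, 36.9 and 31.7 in Q7-T, 0.457, 0.236 and 0.462 in Q111-C, and 79.2, 79.4 and 85.5 in Q111-T. The control values came from 15 to 51 estimated counts, and of the 8 libraries that reached 0.5 TPM 6 were treated. The log2 fold change was 6.59 ± 0.564 in Q7-T vs. Q7-C (edgeR adjusted p = 1.59e-05) and 7.78 ± 0.592 in Q111-T vs. Q111-C (edgeR adjusted p = 3.64e-06). Between the treated groups the libraries did not overlap and the mean TPM ratio was 2.49 ± 0.306, but the fitted log2 fold change of 0.83 ± 0.433 was not called (edgeR adjusted p = 0.152). It was called without replicate 2 of Q7-T (1.23, adjusted p = 0.0339) and with limma on log2(TPM + 0.5) (1.31, adjusted p = 7.80e-04). The opposite strand gene Arl2 and the same strand genes n-R5s19 and Gm5510 overlap the span of Batf2.

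Egr1 (chromosome 18) moved in opposite directions in the lines. It was at 12.4, 19.5 and 22.6 TPM in Q7-C, 11.5, 2.70 and 9.19 in Q7-T, 43.6, 41.6 and 38.5 in Q111-C, and 107, 85.5 and 105 in Q111-T. The 4 groups were ordered Q111-T, Q111-C, Q7-C, Q7-T with no overlap between neighbours. Egr1 rose in Q111-T vs. Q111-C by a log2 fold change of 1.36 ± 0.266 (edgeR adjusted p = 0.00377), although limma on log2(TPM + 0.5) gave 1.25 with an adjusted p of 0.0579. In STHdhQ7 cells Egr1 fell by 1.13 on the log2 scale (SE 0.266, edgeR adjusted p = 0.0302). That fall was under 2-fold without replicate 2 of Q7-T (-0.82, adjusted p = 0.00498), and leaving out any of 7 other single libraries (replicates 2 or 3 of Q7-C or Q111-C, 1 or 3 of Q111-T, 3 of Q7-T) put its adjusted p between 0.0510 and 0.110. In Q111-C vs. Q7-C Egr1 was at 0.90 ± 0.264 on the log2 scale (edgeR adjusted p = 0.0297), under the limit, but it was called without replicate 3 of Q7-C (1.02, adjusted p = 0.0434).

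**Figure D2:**
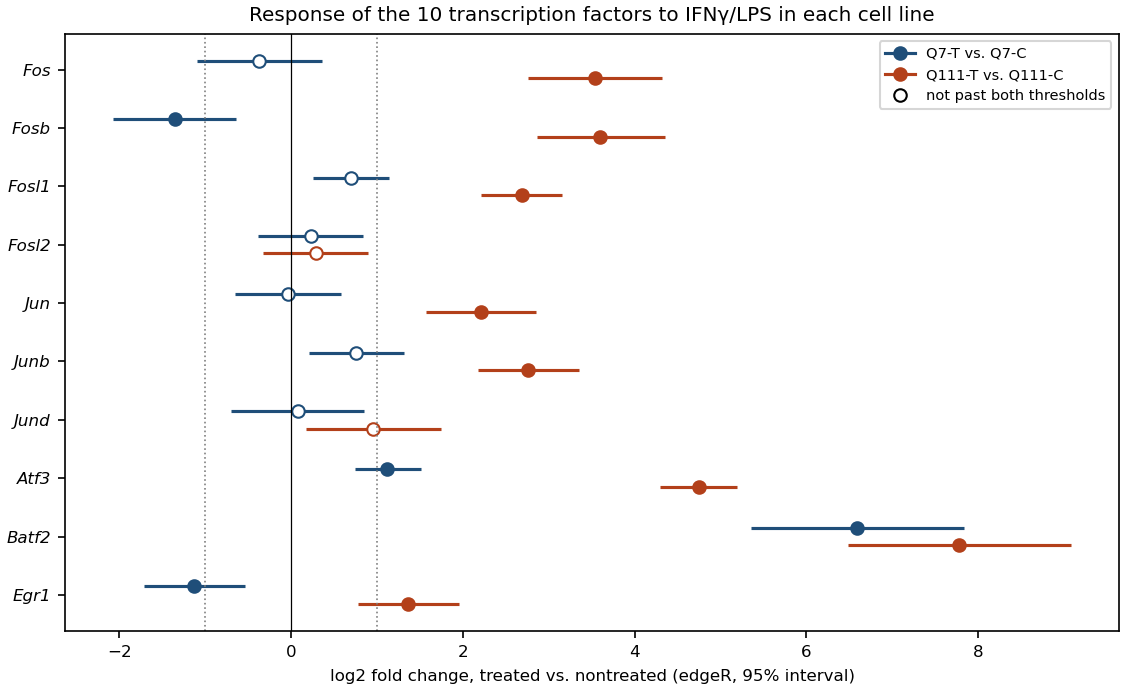
Fitted log2 fold change (x axis) of each gene (y axis) in treated vs. nontreated STHdhQ7 (blue) and STHdhQ111 (red) cells, with 95% intervals; filled points passed both thresholds (dotted lines mark the 2-fold limit). In STHdhQ111 cells 8 of 10 were called, all higher, as were 8.28% of all genes tested. In STHdhQ7 cells 4 were called, Atf3 and Batf2 higher (2.93% of all genes) and Fosb and Egr1 lower (1.11%). Of these 4, Batf2 alone kept its call under all alternatives.

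The 4 comparisons addressed how the lines differ with and without IFNγ/LPS and how each line responds, and they share libraries, since each group enters 2 of them. Genes were called at an edgeR adjusted p under 0.05 with at least a 2-fold change. In Q111-T vs. Q111-C 8 of the 10 genes were called, all higher, beside 11.2% of all 16127 genes tested, with 8.28% called higher and 2.96% lower, and Fosl2 and Jund were the exceptions. The median log2 fold change of the 10 was 2.73, against a median of 0 over all genes. The STHdhQ7 line had 4 calls among the 10, against 4.04% of all genes, with 2 higher (2.93% of all genes) and 2 lower (1.11%) and a median of 0.15. Of these 4, Batf2 alone kept its call under all alternatives. Without both libraries that stood apart 3 were called, Batf2 (6.64) and Junb (1.21) higher and Fosb (-1.71) lower, while Atf3 (0.98) and Egr1 (-0.94) lay under the 2-fold limit. In Q111-T vs. Q7-T 7 were called, all higher (24.5% of all genes, 13.3% higher), and Fosl2, Jund and Batf2 were not. Fosb, which passed the filter only through the Q111-T libraries, was among those called in both comparisons with that group. In Q111-C vs. Q7-C only Atf3 was called, as lower, against 15.2% of all genes, with 7.61% lower and 7.62% higher, and it stayed so without both libraries (-1.06, adjusted p = 8.59e-05).

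Between the treated lines the fitted differences were highest for Fosb (4.64 ± 0.361 in Q111-T vs. Q7-T, edgeR adjusted p = 3.49e-06), Fos (4.27 ± 0.371, 7.51e-06) and Egr1 (3.39 ± 0.288, 6.43e-06). The order depends on the treatment of low levels, since Fosb had 29 to 35 estimated counts in each Q7-T library and was at 2.25 with limma on log2(TPM + 1), where Fos was at 3.68. Atf3 (2.49 ± 0.182, 2.11e-06), Junb (2.10 ± 0.261, 9.61e-05) and Jun (1.87 ± 0.288, 4.48e-04) followed. Fosl2 was at 0.66 ± 0.280 (edgeR adjusted p = 0.0841) and Jund at 0.34 ± 0.354 (0.468). Without both libraries that stood apart, Jund was at 0.83 with an adjusted p of 0.00224, under the 2-fold limit, Fosl2 at 0.39 (0.0623) and Batf2 was called (1.27, 0.00774), while the 7 others stayed called, between 1.17 for Fosl1 and 4.97 for Fosb. Among the nontreated lines the genes not yet given lay between -0.54 ± 0.354 for Jund and 0.60 ± 0.280 for Fosl2 in Q111-C vs. Q7-C, with edgeR adjusted p from 0.160 for Fosl2 to 0.832 for Junb. Fos and Jun, at 0.36 ± 0.329 and -0.38 ± 0.280, were thus not told apart between the lines before treatment.

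Counted by TPM, the groups did not overlap for 9 of the 10 genes in Q111-T vs. Q111-C (49.6% of all genes) and for 9 in Q111-T vs. Q7-T (46.3%), in each case all but Fosl2. They did not overlap for 4 in Q7-T vs. Q7-C (14.4%: Fosb, Atf3, Batf2 and Egr1) and for 4 in Q111-C vs. Q7-C (51.4%: Fosl2, Junb and Egr1 higher, Atf3 lower). The exact permutation test of 3 against 3 libraries gives each such gene p = 0.1, two-sided, the smallest it allows. TPM ratios between the lines ran above the fitted fold changes: the median log2 fold change of all genes was 0.27 in Q111-C vs. Q7-C and 0.34 in Q111-T vs. Q7-T with limma on log2(TPM + 0.5), against -0.02 and -0.03 with edgeR.

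The difference between the responses of the lines was tested as an interaction of cell line and treatment. In it 7 of the 10 genes were called, all with the higher value in STHdhQ111 cells, beside 4.71% of all genes and 3.52% called higher. Fosb, one of the 7, passed the filter only through the Q111-T libraries, in which it was high. On the log2 scale the response of STHdhQ111 cells exceeded that of STHdhQ7 cells by 4.96 ± 0.467 for Fosb (edgeR adjusted p = 1.96e-04) and by 3.91 ± 0.479 for Fos (9.36e-04). Atf3 followed with 3.62 ± 0.252 (edgeR adjusted p = 3.71e-05) and Egr1 with 2.49 ± 0.376 (0.00314). Jun, Junb and Fosl1 differed by 2.25 ± 0.400, 2.00 ± 0.358 and 1.99 ± 0.290, with edgeR adjusted p of 0.00752, 0.00781 and 0.00244. The first place of Fosb depends on how low levels are treated, as its lowest over the alternatives was 2.26, with limma on log2(TPM + 1), under the lowest of Fos (3.26) and Atf3 (3.51). All of these calls but that of Jun held under every alternative, and Jun reached an adjusted p of 0.0548 with limma on log2(TPM + 0.1).

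For the remaining 3 genes no difference between the responses was called. Batf2 differed by 1.19 ± 0.671 (edgeR adjusted p = 0.360, 95% interval -0.28 to 2.66), Jund by 0.88 ± 0.5 (0.364, -0.22 to 1.98) and Fosl2 by 0.06 ± 0.394 (0.964, -0.81 to 0.92). The interval of Batf2 spans both 0 and differences of more than 2-fold, and limma on log2(TPM + 0.5) called it at 1.28 (adjusted p = 0.0327). The sign for Fosl2 turned under several alternatives, down to -0.26 without replicate 2 of Q7-T.

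**Figure D3:**
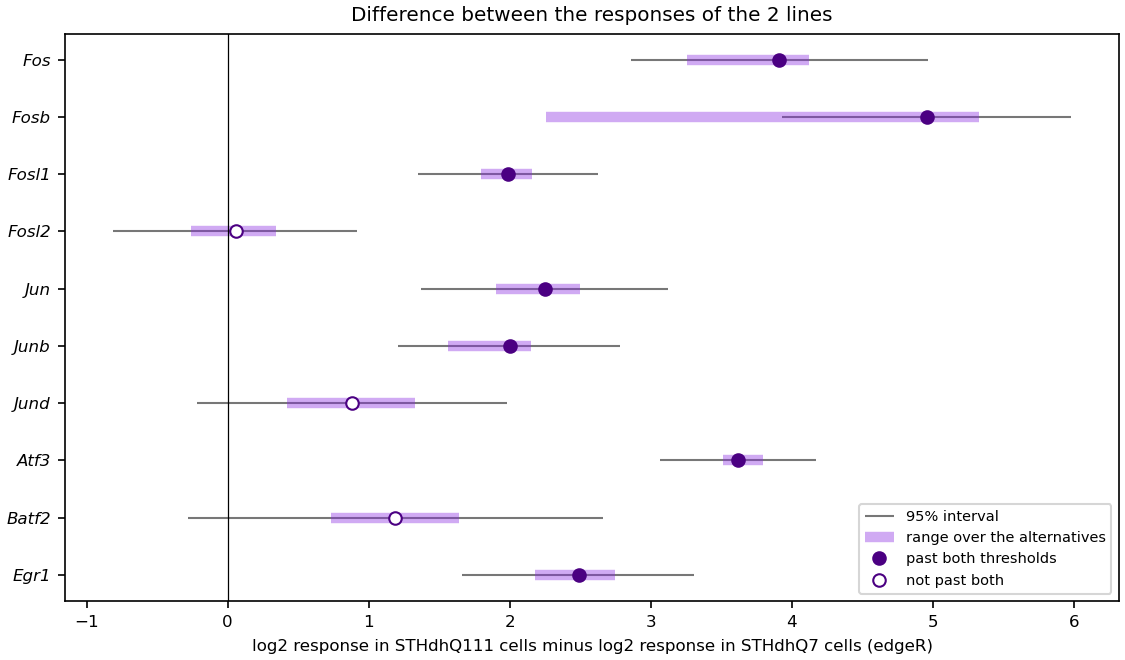
Difference of the log2 responses, STHdhQ111 minus STHdhQ7 cells (x axis), for each gene (y axis): points are the fitted values, thin lines their 95% intervals and pale bars the range over the alternative analyses. The 7 filled points, from 1.99 for Fosl1 to 4.96 for Fosb, passed both thresholds, as 3.52% of all genes tested did in this direction. The lowest pale bar among them starts at 1.56, for Junb.

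Replicate 2 of Q7-T did not shift the 10 genes alike. Relative to the mean of the other 2 Q7-T libraries, its TPM was 0.243 for Jun, 0.257 for Fosl2, 0.262 for Egr1, 0.279 for Fos and 0.355 for Junb. It was 0.676 for Fosl1, 0.873 for Atf3, 1.06 for Fosb, 1.20 for Batf2 and 1.30 for Jund. When it and replicate 1 of Q7-C were both left out, a choice made after seeing the data, the same 7 genes were called in the interaction, with 3.86 for Fos, 5.33 for Fosb, 2.14 for Fosl1, 1.90 for Jun, 1.56 for Junb, 3.78 for Atf3 and 2.32 for Egr1.

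The make-up of both families differed between groups as measured in TPM, which compares genes per length. The 4 Fos family genes summed to 288 ± 9.01 TPM in Q111-T (SD, n = 3), against 72.8 ± 2.51 in Q111-C, 99.8 ± 33.6 in Q7-T and 76 ± 20.6 in Q7-C. Fosl1 held 76.9% ± 2.78 of this sum in Q111-T and 50.8% ± 6.15 in Q111-C, and its share was 79.9% ± 10.4 in Q7-T and 74.2% ± 0.141 in Q7-C. Its share in Q111-C was the lowest, and Fosl2 took 45.6% ± 5.60 there against 23.5% ± 0.240 in Q7-C and 13.2% ± 3.01 in Q111-T. Fos itself held 8.34% ± 1.16 of the sum in Q111-T, against 1.83% ± 0.338 in Q7-C, 0.957% ± 0.392 in Q7-T and 3.04% ± 0.821 in Q111-C.

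The 3 Jun family genes summed to 1140 ± 140 TPM in Q111-T, against 295 ± 1.03 in Q111-C, 319 ± 62.6 in Q7-T and 281 ± 48.0 in Q7-C. Jund was the largest part in Q7-C, at 57.1% ± 5.27, and Junb in Q111-T, at 65.4% ± 1.41, where Jund held 22.8% ± 1.79. Jun held 11.8% ± 3.52 in Q7-C and 11.8% ± 2.62 in Q111-T. In Q7-T the share of Junb was 51.9% at its highest and 25.9% at its lowest.

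**Figure D4:**
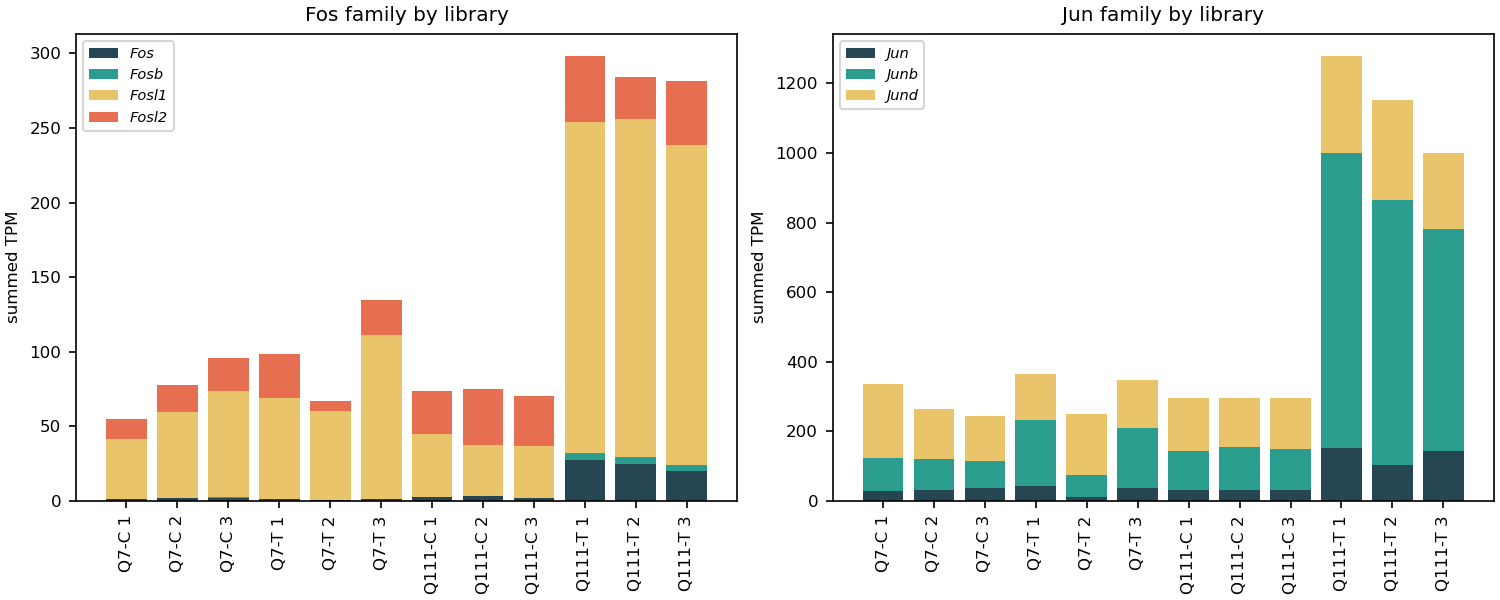
Summed TPM (y axis) of the Fos family (left) and the Jun family (right) in each of the 12 libraries (x axis), stacked by gene. The 3 Q111-T libraries reach 282 to 298 TPM for the Fos family, mostly Fosl1, and 999 to 1280 TPM for the Jun family, mostly Junb.

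The 10 genes share a low number of exons, which their selection by name did not use. In GENCODE M21 all 10 have at most 4 exons, as do 22.2% of 12770 tested genes with a coding transcript, and Jun, Junb and Jund have a single exon, as do 3.28%. Of the 10, 7 span less than 10 kb, against 25.7% of those genes, while Atf3 (47744 bases) and Batf2 (31494 bases) exceed the median of 22806 bases and Fosl2 (22042 bases) lies near it. The pentamer ATTTA, which marks AU-rich decay elements, occurs at least 3 times in the 3′UTR of Fos (4), Fosl2 (8), Jun (4) and Atf3 (3), which is 4 of 10 genes against 32.9%.

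The counts for the lists that follow stand beside 8.28% of all genes called higher and 2.96% lower in Q111-T vs. Q111-C, and 2.93% and 1.11% in Q7-T vs. Q7-C. Among the other genes of the pathway, 17 further immediate-early genes were tested, and in Q111-T vs. Q111-C 7 rose and 1 fell, with a median log2 fold change of 1.06. The highest were Csrnp1 (2.90 ± 0.240, edgeR adjusted p = 6.85e-06), Ier3 (2.16 ± 0.214, 2.73e-05) and the nuclear receptor Nr4a2 (1.63 ± 0.315, 0.00340). Klf4 (1.57), Egr2 (1.51), Nr4a1 (1.51) and Ier2 (1.25) also rose, whereas Egr3 fell by 1.16 (SE 0.259, 0.00829). Klf2 was called as well without both libraries that stood apart (1.08, adjusted p = 0.00836). In treated STHdhQ7 cells Ier3 was the 1 gene called higher (1.79 ± 0.211, edgeR adjusted p = 2.53e-04), and Egr3 (-1.88 ± 0.266, 9.55e-04) and Ccn2 (-1.66 ± 0.253, 0.00169) fell, with a list median of -0.27. All 3 were called without both libraries that stood apart (2.10, -1.68 and -1.49). Nr4a3 was at 1.86 in Q7-T vs. Q7-C, not called (0.372), on at most 20 estimated counts a library in these groups. Egr1 and Egr3 thus moved in opposite directions in treated STHdhQ111 cells.

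Of 9 other bZIP partners tested, the small Maf genes Mafk (2.22 ± 0.139, edgeR adjusted p = 8.62e-07) and Maff (2.19 ± 0.197, 1.32e-05) rose in Q111-T vs. Q111-C, and Maf fell by 2.73 (SE 0.471, 0.00165). In Q7-T vs. Q7-C Maff was called (1.06 ± 0.191, 0.00564), but not in 8 of 25 alternatives, while Batf3 at 1.44 was not called. Without both libraries that stood apart Maff (1.28) and, as lower, Maf (-1.10, adjusted p = 0.0163) were called there. With all 12 libraries the list medians were 0.31 in STHdhQ111 and 0.03 in STHdhQ7 cells. The serum response and ternary complex factors, together with the Egr corepressors Nab1 and Nab2, gave 0 calls among 8 in either treatment comparison with edgeR, DESeq2 and limma on log2(TPM + 0.5). Their medians were -0.11 in STHdhQ111 and -0.32 in STHdhQ7 cells, and 3 and 2 of the 8 had an unadjusted edgeR p under 0.05, Nab2 among them in both lines.

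Among 15 MAP kinases, 2 were called in Q111-T vs. Q111-C, where 11.2% of all genes were, and 1 in Q7-T vs. Q7-C (4.04% of all genes). Map3k8, the kinase Tpl2 downstream of LPS, was called in both lines, at 3.12 ± 0.442 in STHdhQ111 (edgeR adjusted p = 4.11e-04) and 1.98 ± 0.426 in STHdhQ7 cells (0.0180, lost in 7 of 25 alternatives but not without both libraries that stood apart, 2.25), and Map2k1, encoding MEK1, rose in STHdhQ111 cells (1.51 ± 0.189, 1.73e-04). Of 15 MAP kinase phosphatases and Sprouty inhibitors, which limit this pathway, 4 rose in Q111-T vs. Q111-C: Dusp6 (2.15 ± 0.421, 0.00376), Dusp4 (1.90 ± 0.498, 0.0197, lost in 6 of 25 alternatives), Dusp8 (1.21 ± 0.194, 0.00101) and Dusp1. Spry1 was called as lower without both libraries that stood apart (-1.0, adjusted p = 0.0320). In the other line edgeR called 0 of 15, with 4 at an unadjusted p under 0.05, while DESeq2 called 1 and limma on log2(TPM + 0.5) called 0. Of 6 AU-rich decay factors, Zfp36, which targets such mRNAs for decay, rose in Q111-T vs. Q111-C (2.38 ± 0.176, 2.95e-06) and was at 0.82 ± 0.169 in Q7-T vs. Q7-C (0.0136), under the 2-fold limit.

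Of 15 textbook AP-1 targets tested, 8 rose and 1 fell in Q111-T vs. Q111-C, with a median of 1.56, and 1 rose and 1 fell in Q7-T vs. Q7-C, with a median of 0.15. The cytokine gene Il6 rose by 9.06 ± 1.19 (edgeR adjusted p = 2.48e-04) and Mmp3, a stromelysin, by 5.27 ± 0.268 (2.53e-07) in STHdhQ111 cells, and Spp1 fell by 2.45 (SE 0.207, 8.01e-06). Mmp13, a collagenase, was called (5.38 ± 1.15, 0.00653) from 0 to 16 estimated counts a library in Q111-C, and 3 of the 4 libraries in which it reached 0.5 TPM were Q111-T. Areg, Vegfa, Hmox1, Cd44 and Plau were the others that rose. In STHdhQ7 cells Mmp3 rose (4.42 ± 0.264, 7.92e-07), and Il6 was at 3.58 ± 0.947 (0.0529), not called here but called in 9 of 25 alternatives. Without both libraries that stood apart Mmp3 was at 4.33, Il6 was called (3.39, adjusted p = 0.0202) and Plau lay under the 2-fold limit (-0.83). Mmp10 was not called in either line, at 3.85 in Q7-T vs. Q7-C (0.118) and 2.30 in Q111-T vs. Q111-C, and reached 0.5 TPM only in the 3 Q7-T libraries (1.52 to 2.49 TPM). Plau, the urokinase gene, fell by 1.08 (SE 0.258, 0.0318) in Q7-T vs. Q7-C and rose by 1.01 ± 0.255 (0.0164) in Q111-T vs. Q111-C, but both values lay at the 2-fold limit and lost their call in 16 and 13 of 25 alternatives.

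**Figure D5:**
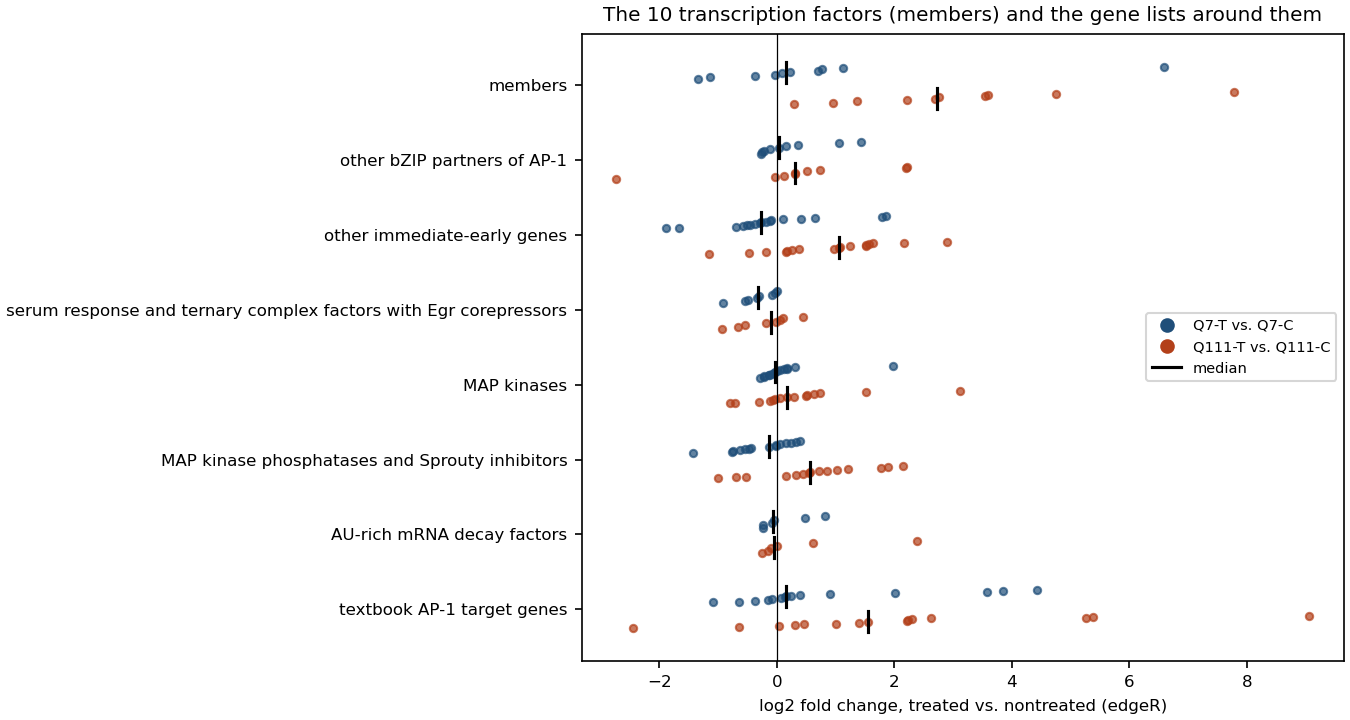
Fitted log2 fold change (x axis) of each tested gene in the 10 transcription factors (members) and 7 lists around them (y axis), in treated vs. nontreated STHdhQ7 (blue) and STHdhQ111 (red) cells; black bars are list medians. The medians in STHdhQ111 cells are 2.73 for the 10 genes, 1.56 for the AP-1 targets and 1.06 for the other immediate-early genes, against 0.15, 0.15 and -0.27 in STHdhQ7 cells.

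Genes of the most similar pattern were named for the 7 genes called in the interaction, by Pearson correlation of log2(TPM + 0.5) over the 12 libraries, as a description of libraries that fall into 4 groups. Junb was most like Csrnp1 (r = 0.993), Egr1 most like Plau (0.993), Atf3 most like Psrc1 (0.990) and Fos most like Plk3 (0.989). Jun was nearest to Gtse1 (0.988), Fosb to Tbx2 (0.984) and Fosl1 to Inka2 (0.974), with Atf3 the third in the list of Fosl1 (0.970). The mean TPM of Plau was 44.1 in Q111-T, 23.5 in Q111-C, 9.63 in Q7-C and 4.29 in Q7-T, in the same order of groups as Egr1.

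Levels of cell type markers also differed between the groups, and only some of them were at their highest or lowest in Q111-T. The summed TPM of the mesenchymal markers was lowest in Q111-T, and most of it came from Vim, encoding vimentin (1150 to 1210 TPM in Q111-T and 1720 to 1970 TPM in Q7-T), and in STHdhQ7 cells also from the smooth muscle actin gene Acta2. Acta2 and Tagln were lower in Q111-T than in Q7-T, by log2 fold changes of -6.09 and -5.51, and likewise in Q111-C than in Q7-C (-5.59 and -5.44). The collagen genes Col1a1, Col1a2 and Col3a1 fell with treatment in both lines and were each lowest in Q7-T. Col1a2 fell by 2.56 on the log2 scale in STHdhQ111 cells, to a mean of 40.1 TPM, and by 1.64 in STHdhQ7 cells, to 4.17 TPM. Cd68 was highest in Q111-T (40.3 to 57.5 TPM). The 2 neuron markers tested moved differently: Tubb3 rose in both lines (2.77 in STHdhQ111 and 2.29 in STHdhQ7 cells), whereas Map2 fell by 1.80 in STHdhQ7 cells (edgeR adjusted p = 0.00868) and was at 0.02 in STHdhQ111 cells (0.990). Of the 2 astrocyte markers tested, Slc1a3 fell by 1.75 in STHdhQ111 cells. Aldh1l1 was called higher there, from 0 in 2 of the 3 Q111-C libraries (0.115 TPM in the third) to between 1.05 and 1.61 TPM, so its fold change has no firm base. Their part in the levels of the 10 genes was not tested.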

How the data were processed

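RNA of 12 samples was made into stranded mRNA libraries, and per the study's methods the authors trimmed reads with Cutadapt, aligned them with HISAT2 to GRCm38 and estimated transcripts with StringTie. The deposited table gives TPM and estimated counts per gene, which the authors made with StringTie; the counts are whole, and multiples of 4 were 1.28 to 1.72 times as frequent as even neighbours, so about 4 counts may stand for 1 pair. An alternative divided them by 4.

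Estimated counts were tested with edgeR 4.0.16 (quasi-likelihood, TMM, 1 mean per group, 12 libraries in 1 fit) over the 16127 genes that reached 0.5 TPM in 3 or more libraries, with Benjamini-Hochberg adjustment over all of them. Calls needed an adjusted p under 0.05 together with a 2-fold or larger change, as in the study. SEs and 95% intervals came from the fit. TPM was compared by exact permutation tests. The 10 genes and all lists were chosen with earlier results of these data known. All 10 were described, and up to 3 called genes at each end of a list in either treatment comparison were named with full statistics. Further called genes were named after their values were seen. Alternatives were other scalings, filters, DESeq2 1.42.0, limma 3.58.1 on log2(TPM + 0.1, 0.5 or 1), fits of the compared groups alone, a replicate block and leaving out each library. On simulated counts with 200 of 16127 genes changed, Q111-T vs. Q111-C gave 103 calls, 101 of them right, with 20 of 100 genes recovered at 2-fold and 81 of 100 at 4-fold. The interaction gave 58 calls, 54 of them right, with 3 of 100 recovered at 2-fold and 51 of 100 at 4-fold. Changes near 2-fold are thus mostly missed, in part because a call itself needs an estimate of at least 2-fold. The changed genes were drawn from those with a mean of at least 100 estimated counts, so recovery at fewer counts was not simulated. Gene structures came from GENCODE M21 and promoters from RefSeq (GRCm38.p6). No amino acid sequence was used here. The table's strand setting of the counting is not given in the sources used here, so reads of overlapping antisense genes may be shared. Some results for genes of the lists are not reported here.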

Additional observations from a re-analysis of the deposited data

Results flagged for a closer look

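Results were taken up here where the responses of the lines to IFNγ/LPS differed by the interaction test (edgeR adjusted p under 0.05 and at least 2-fold). Given as the log2 response of STHdhQ111 minus that of STHdhQ7 cells, the differences were 4.96 for Fosb, 3.91 for Fos, 3.62 for Atf3, 2.49 for Egr1, 2.25 for Jun, 2.00 for Junb and 1.99 for Fosl1. All 3 Q111-T libraries lay above all 3 Q111-C libraries for these 7 genes, and these groups did not overlap for 49.6% of all genes. The interaction that selected the 7 uses the same libraries, so this describes their levels and is no separate test. Among the bZIP partners Mafk differed by 1.86, Maff by 1.13 and Maf by -2.48. Among the other immediate-early genes Csrnp1 differed by 2.25, Nr4a1 by 2.22, Klf4 by 2.13, Egr2 by 2.02, Nr4a2 by 1.76, Ier2 by 1.52 and Ccn1 by 1.08. Map2k1 differed by 1.20, Dusp8 by 1.14 and Zfp36 by 1.56. Among the AP-1 targets Il6 differed by 5.48, Areg by 2.77, Vegfa by 2.10, Plau by 2.09, Hmox1 by 1.84, Cd44 by 1.17 and Spp1 by -2.37. In the response check Nos2 differed by 2.59, and among the cell type markers Map2 by 1.81 and Slc1a3 by -1.96. Of these list genes, Ccn1 and Map2 lost their call in 16 of 24 alternatives, Maff and Hmox1 in 15, Map2k1 and Nr4a2 in 13, Dusp8 in 12, Maf in 11, Il6 in 9, Nos2 in 6, Ier2 in 5, Cd44 in 3, and Egr2, Klf4, Plau and Slc1a3 in 1. Without both libraries that stood apart, Dusp4 (2.17), Dusp6 (1.69), Klf2 (1.46) and Ccn2 (1.03) of the pathway lists were also called, and Maff (0.92) and Ccn1 (0.84) lay under the 2-fold limit.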

How the results depend on the processing

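Of the 27 member values that were called, 20 kept their call under every alternative and 0 changed sign, and of the 23 not called, 19 stayed so. In Q7-T vs. Q7-C, 1 of the 10 genes was called with the compared groups alone and with limma at any pseudocount, 2 with scaling by library totals alone, and 2 to 4 when single libraries were left out. Over all genes that comparison gave 394 calls with the compared groups alone and 414 with limma on log2(TPM + 1), against 651. In Q111-C vs. Q7-C, 0 members were called with limma on log2(TPM + 0.1 or 0.5) and 1 to 2 with single libraries left out. The interaction gave 760 calls over all genes, 1303 with DESeq2, and 1374 without both libraries that stood apart. The causes were not tested.

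Sign changes were limited to 6 values that were not called. The Fosl2 interaction was -0.004 with upper-quartile scaling, -0.155 without both libraries and -0.259 to 0.34 with single libraries left out. In Q7-T vs. Q7-C, Jund was -0.08 with library totals, -0.117 with each limma fit and -0.374 to 0.53 with single libraries left out. Fosl2 was -0.069, -0.06 and -0.05 with limma at 0.1, 0.5 and 1 and -0.052 to 0.54 with single libraries left out, and Jun was 0.324 without both libraries and -0.29 to 0.293 with single libraries left out. In Q111-C vs. Q7-C, Batf2 was 0.09, 0.021 and 0.008 with limma at 0.1, 0.5 and 1, 0.117 without both libraries and -0.79 to 0.103 with single libraries left out, and Junb was -0.034 to 0.36.

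Whether the replicate numbers pair the libraries was not settled: correlations of same-numbered deviations ranged from -0.582 to 0.45. Both ends came from Q7-T vs. Q7-C, the comparison that holds both libraries that stood apart, under different numbers. With the replicate block the members called stayed at 8 in treated STHdhQ111 cells, 4 in treated STHdhQ7 cells, 7 in the interaction, 7 between the treated lines and 1 between the nontreated ones. Library totals alone moved the median log2 fold change of all genes to 0.17 in Q111-T vs. Q7-T and -0.12 in Q7-T vs. Q7-C. Fosb and Batf2 in the controls and Fos in STHdhQ7 cells rest on few counts, which limits their fold changes.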
